A study of Mus musculus with 18 samples.

Results

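The Fc gamma receptors bind the constant part of IgG antibodies, and the data describe the messenger RNA of 4 receptor genes and of their signalling adapter in a mouse macrophage line. The genes were Fcgr2b, which encodes the inhibitory receptor, Fcgr1, Fcgr3 and Fcgr4, which encode activating receptors, and Fcer1g, which encodes the adapter chain of the activating receptors. Members were the probe sets that the array's annotation assigns to these symbols, which gave 10 of the 45037 probe sets that are not array controls, and 9 of the 10 were among the 25612 kept by a filter on low signal. The 5 genes stood among 11547 with a kept probe set. Fcgr2b was picked because its signal was higher in cells treated with the plant fraction, so its values in any comparison with a fraction group are given as a description, without a test. The other 4 genes were not picked on their values.

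RAW264.7 cells, an established line of mouse macrophages that grows adherent and takes up antibody-coated particles, were treated for 8 h and profiled in 6 groups of 3 arrays. Vehicle cells received 0.1% DMSO, the solvent. Fraction cells received, at 10 ug/mL, a sub-fraction prepared from St John's wort, Hypericum perforatum. Mixture cells received 4 compounds of the plant, amentoflavone at 0.07 uM, quercetin at 0.08 uM, chlorogenic acid at 0.2 uM and pseudohypericin at 0.03 uM. The other 3 groups received the same treatments together with 10 ug/mL LPS, the bacterial lipopolysaccharide that macrophages sense through Toll-like receptor signalling. All groups shared the handling in the dark and 30 min of ambient light. The labels give numbered replicates but do not say whether these came from separate cultures, so p-values measure the spread between arrays, which may be technical.

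Activating Fc gamma receptors pair with the Fcer1g chain, whose ITAM motif (an activation motif with tyrosines) is phosphorylated by Src-family kinases and recruits the kinase Syk. That pathway drives phagocytosis of antibody-coated particles and release of mediators. Fcgr2b carries an inhibitory motif, ITIM, in its own tail and recruits the lipid phosphatase SHIP1 (gene Inpp5d), which opposes the same pathway when both kinds of receptor are engaged. Macrophages carry both kinds, and their ratio sets how strongly immune complexes activate a cell.

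Values are signal intensities on a linear scale, and levels of different probe sets were not set against each other. Array medians lay between 52.1 and 66.8, and arrays of a group correlated at 0.967 to 0.978 on the log2 scale. Of 8 macrophage markers 7 were kept, and Csf1r, the macrophage growth factor receptor, lay between 16300 and 24610 on the 18 arrays. Mertk was the exception, under the array median on all 18 arrays. Markers of 8 other cell types gave a summed signal of at most 190.6 per type on any array. B cells, which also carry Fcgr2b, had Cd79b and Ms4a1 under the median on all arrays, and the summed signal of their 4 markers on the array ranged from 67.9 to 165 in fraction cells and from 103 to 136 in vehicle cells. In a bulk culture, a change in RNA per cell and a change in the share of cells that express a gene cannot be told apart.

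Fcgr2b, Fcgr4 and Fcgr3 lie close together on chromosome 1, in that order in the RefSeq gene table (GRCm38.p6), with Fcer1g 10 genes on from Fcgr2b, while Fcgr1 lies on chromosome 3. The promoter windows of the 3 neighbours are shown because these genes share a locus and gave different values in the fraction groups. Each window is 300 bases from RefSeq (GRCm38.p6), from 250 bases before to 50 after the gene's start, printed 5′ to 3′ on the gene's strand, and capitals mark TTCCTC, the reverse complement of GAGGAA, a core of the box bound by the macrophage factor PU.1.
Fcgr2b, chr1:170976022-170976321, minus strand: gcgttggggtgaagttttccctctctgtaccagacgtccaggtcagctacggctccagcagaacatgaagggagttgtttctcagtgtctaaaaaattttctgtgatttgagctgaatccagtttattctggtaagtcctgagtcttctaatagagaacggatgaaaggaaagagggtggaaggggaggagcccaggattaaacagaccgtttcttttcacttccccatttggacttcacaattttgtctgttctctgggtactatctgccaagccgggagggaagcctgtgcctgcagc
Fcgr4, chr1:171018676-171018975, plus strand: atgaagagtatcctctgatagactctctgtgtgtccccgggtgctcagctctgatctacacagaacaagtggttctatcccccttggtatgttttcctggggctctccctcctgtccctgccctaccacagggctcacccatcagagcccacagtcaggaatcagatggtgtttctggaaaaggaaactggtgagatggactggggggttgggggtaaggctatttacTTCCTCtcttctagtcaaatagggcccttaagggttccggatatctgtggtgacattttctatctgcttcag
Fcgr3, chr1:171059354-171059653, minus strand: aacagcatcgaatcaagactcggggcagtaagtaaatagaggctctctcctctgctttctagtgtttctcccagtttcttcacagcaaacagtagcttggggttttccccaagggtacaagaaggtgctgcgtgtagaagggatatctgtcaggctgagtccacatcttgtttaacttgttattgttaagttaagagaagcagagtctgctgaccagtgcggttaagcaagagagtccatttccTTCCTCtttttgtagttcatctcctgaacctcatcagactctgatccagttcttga

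GAGGAA was found on either strand in 28.3% of 32851 promoter windows of the same length. It was present at -22 in Fcgr4, at -6 in Fcgr3 and at -55 in Fcgr1, counted from the start of the printed window's gene model, and these letters were not in the windows of Fcgr2b and Fcer1g. RefSeq has a second start for Fcgr3, from which the same match lies at -15. The other motifs searched on both strands were a pair of GAAA repeats with any 2 bases between them, the core of an interferon-stimulated response element (3.44% of windows), and TTCNNNGAA, a STAT site (8.3%). An AP-1 site, TGANTCA, was in 7.81% of windows and TGATGNAA, the core of a site of the stress factors CHOP and ATF4, in 3.97%. The paired GAAA repeat occurred in Fcgr4 at -73 and TTCNNNGAA in Fcgr1 at -109, and no other match was found in the members' windows. These matches are letters in a window and not measured binding.

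The inhibitory receptor gene Fcgr2b stood at 3 levels across the 6 groups. Its brightest probe set gave 245, 287 and 268 in vehicle cells and 297, 229.9 and 244.5 in mixture cells. With LPS it gave 468, 1287 and 938 in vehicle cells and 500.3, 499 and 394 in mixture cells. These 4 groups all lay far below the fraction arrays.

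Fraction cells gave 3329.6, 4157 and 3812 without LPS, and 3338, 3069 and 3368 with LPS. Every fraction array lay above every array of the other 4 groups, and LPS left the fraction arrays in an overlapping range. In rising order the means were 257 ± 35.5 in mixture cells, 267 ± 21.0 in vehicle cells, 464.5 ± 60.9 with mixture and LPS, 898 ± 411 with vehicle and LPS, 3258 ± 165 with fraction and LPS, and 3766 ± 415 in fraction cells (SD, n = 3 each). Neighbours in that order overlapped within each of 3 pairs, mixture with vehicle, the same treatments with LPS, and fraction with and without LPS, and did not overlap between the pairs.

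**Figure D1:**
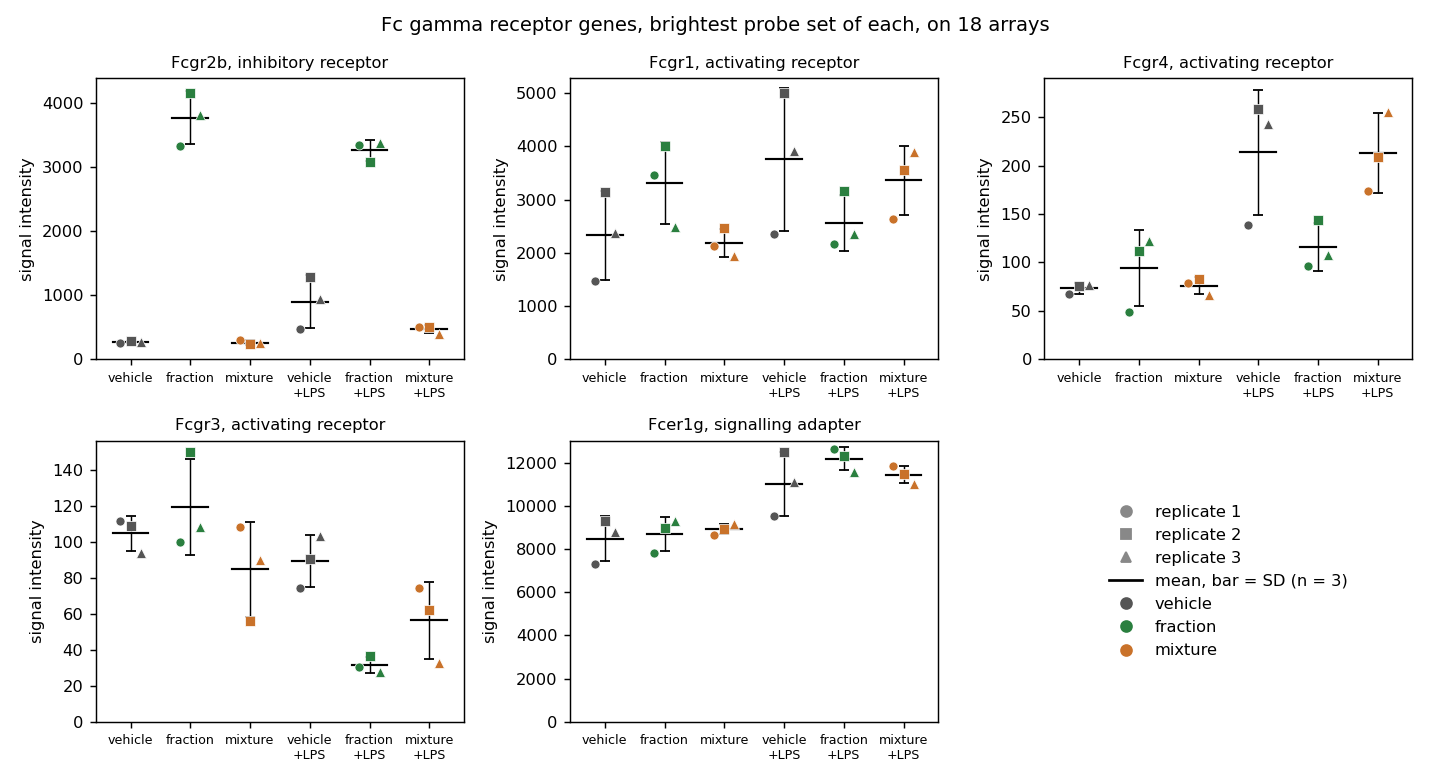
Signal intensity (linear axis from 0) of the brightest probe set of each gene on the 18 arrays, with symbols for replicates 1 to 3, a line at the group mean and a bar of 1 SD (n = 3). Fcgr2b stands apart in both fraction groups (3069 to 4157), and Fcgr3 is lowest in fraction cells with LPS (27.6 to 36.4). Fcgr4 is higher with LPS in vehicle and mixture cells, and Fcer1g is higher with LPS in vehicle, mixture and fraction cells.

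Another 3 probe sets of Fcgr2b were kept. On each of them, too, every fraction array lay above every array of the other 4 groups, but the order and overlap among the remaining groups differed between probe sets. On 1 of them a mixture array (339) lay above the lowest array of vehicle with LPS (286). On a second the mixture arrays with LPS (219.8 to 266) lay wholly below those of vehicle with LPS (268 to 746), and on the third the fraction arrays with LPS lay wholly below those without. Their log2 signals correlated with the brightest at 0.982, 0.991 and 0.994 over the 18 arrays, which share the differences between groups. The fifth, which was not kept, lay under the array median on all 18 arrays (0.843 to 32.9). The suffixes s and x mark probe sets that can match several transcripts. Fcgr2b and Fcgr3 are close in sequence in the parts that bind antibody, so some signal could be shared between the genes. The Fcgr3 probe set did not follow the Fcgr2b probe sets, with a correlation of -0.21 to the brightest.

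**Figure D2:**
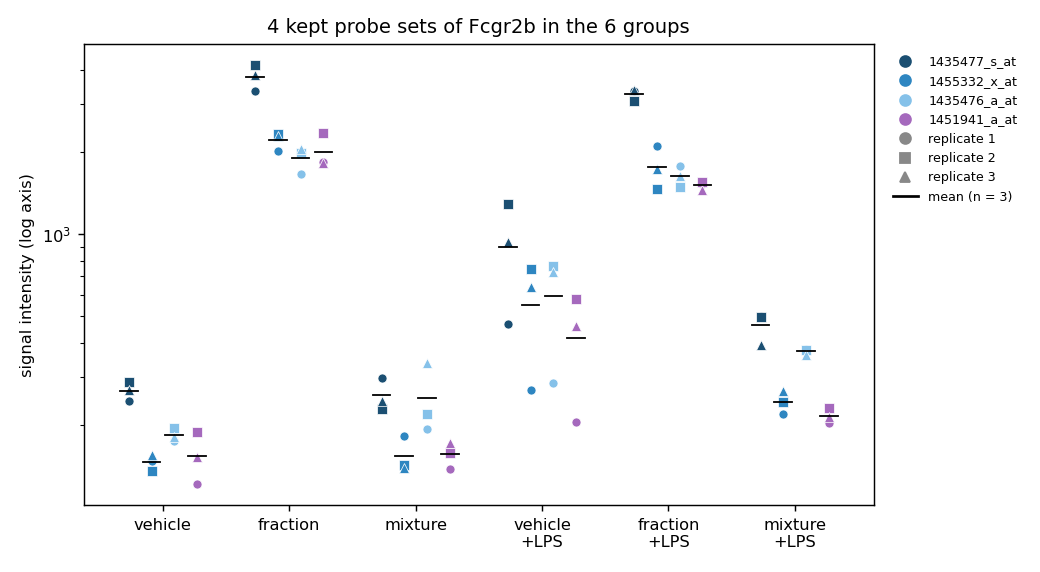
Signal intensity (log axis) of the 4 kept Fcgr2b probe sets by group, with symbols for replicates 1 to 3 and a line at the mean (n = 3). All 4 are highest in the 2 fraction groups, and replicate 1 of the vehicle group with LPS is the lowest of its group for each.

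LPS in vehicle cells raised the inhibitory receptor gene, 1 activating receptor gene and the adapter. Of the 9 kept probe sets 6 were called higher and none lower (limma, Benjamini-Hochberg adjusted p under 0.05). Over all kept probe sets 8.53% were called higher and 15.9% lower. The 6 included the 4 closely correlated probe sets of Fcgr2b. Of the 5 others 2 were called higher and none lower. Fcgr2b rose 3.11-fold at the brightest probe set (log2 difference 1.64 ± 0.23 SE, adjusted p = 2.7e-05), and its 4 probe sets rose by 1.32 to 1.79 on the log2 scale. The vehicle arrays of this test are also the controls of the contrast on which Fcgr2b was picked, so the p-value for Fcgr2b is not independent of that choice. The same holds for every test of Fcgr2b that uses the vehicle arrays without LPS. It can also hold for its tests on the LPS vehicle arrays and the mixture arrays. Those arrays are controls in other fraction comparisons, which were counted as part of the choice. The summed macrophage markers were higher with LPS as well (84830 to 91250 against 68760 to 81930 in vehicle cells). So were the low sums of the markers of mast cells (120 to 145 against 41.3 to 87.8, none of 4 kept), epithelial cells (140.9 to 190.6 against 58.4 to 64.5, 1 of 3 kept) and fibroblasts (137 to 149 against 55.2 to 120, 1 of 3 kept), and their part in the result was not tested.

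Fcgr4, an activating receptor for IgG2 subclasses in the mouse, gave 66.8, 76.0 and 76.9 in vehicle cells and 139, 259 and 243 with LPS, without overlap. It rose 2.82-fold (1.50 ± 0.30, adjusted p = 0.0011). Fcer1g gave 7315, 9317 and 8789 in vehicle cells and 9519.7, 12468 and 11078 with LPS, so that the lowest LPS array lay just above the highest control. It rose 1.30-fold (0.38 ± 0.10, adjusted p = 0.007), a call that ended without vehicle replicate 1 (0.28), without LPS replicate 2 (0.28) or with only the compared arrays (0.38) and had an adjusted p of 0.0011 to 0.06 over the alternatives.

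Fcgr1, the high-affinity activating receptor, gave 1465, 3142 and 2365 in vehicle cells and 2345.5, 5012 and 3912 with LPS at its brighter probe set, and the groups overlapped. The difference of 0.69 ± 0.26 did not pass (adjusted p = 0.063), and neither did the other probe set (0.43 ± 0.30, adjusted p = 0.35). Replicate 1 of the LPS group was the lowest of its group for Fcgr2b, Fcgr1, Fcgr4, Fcgr3 and Fcer1g alike, and without it the Fcgr1 difference was 1.00 and passed (adjusted p = 0.0067, range over alternatives 0.0067 to 0.33). It also passed without vehicle replicate 2 (0.94), with median centring (0.82) and without the 6 arrays numbered 1 (0.70). With the replicate number as a block in the model it passed too (0.69, adjusted p = 0.0075). Fcgr3, a low-affinity activating receptor, gave 112, 109 and 93.5 in vehicle cells and 74.1, 90.5 and 103 with LPS, and the groups overlapped (-0.24 ± 0.32, adjusted p = 0.65).

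The same comparison in mixture cells called 3 of the 9 probe sets higher and none lower, against 6.77% of all kept probe sets higher and 11.7% lower. Fcgr4 rose from 78.8, 83.3 and 66.2 to 174, 209 and 256 (1.47 ± 0.30, adjusted p = 0.0017). Fcer1g rose from 8664, 8920.4 and 9144 to 11818, 11460.0 and 11017 (0.36 ± 0.10, adjusted p = 0.013). Both groups of arrays stood apart without overlap for each gene.

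Fcgr2b in mixture cells rose with LPS at the brightest probe set (0.85 ± 0.23, adjusted p = 0.013), and its other 3 probe sets, at 0.47 to 0.66, did not pass (adjusted p = 0.075 to 0.22). The call ended without mixture replicate 2 (0.78) or without LPS replicate 2 of the mixture (0.80), with an adjusted p of 0.0017 to 0.053 over the alternatives. Fcgr1 gave 2129, 2473 and 1947 in mixture cells and 2638, 3559 and 3886.5 with LPS, which did not overlap. Its difference of 0.61 ± 0.26 did not pass (adjusted p = 0.12, 0.008 with only the compared arrays and 0.021 with the replicate block). Fcgr3 gave 108, 56.1 and 89.7 in mixture cells and 74.4, 62.3 and 32.8 with LPS (-0.61 ± 0.32, adjusted p = 0.21). The last of these arrays was under its array median.

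In fraction cells LPS was followed by a higher value of Fcer1g and a lower value of Fcgr3. Of the 5 kept probe sets other than those of Fcgr2b, 1 was called higher and 1 lower, against 10.1% and 19.1% of all kept probe sets. Fcgr3 gave 99.9, 149.8 and 108 in fraction cells and 30.5, 36.4 and 27.6 with LPS, all 3 of the latter under their array medians of 58.0 to 66.8. It fell by 1.91 ± 0.32 on the log2 scale (adjusted p = 0.00014), and against the array median the signal was at least 1.93-fold lower. This was the only member called lower with LPS in any of the 3 treatments.

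Fcer1g rose from 7827, 8972 and 9286.5 to 12647, 12304 and 11581 (0.49 ± 0.10, adjusted p = 0.0007). Fcgr4 gave 49.1, 111 and 122 in fraction cells, the first under its array median, and 96.0, 144 and 108 with LPS. These overlapped, and the difference of 0.39 ± 0.30 did not pass (adjusted p = 0.38), although without fraction replicate 1 it was -0.03. Fcgr1 gave 3459, 4006 and 2476 in fraction cells and 2173, 3162 and 2344 with LPS, which overlapped (-0.36 ± 0.26, adjusted p = 0.34, and -0.76 ± 0.30, adjusted p = 0.067, at the other probe set).

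Fcgr2b showed log2 differences of -0.40 to -0.20 with LPS in fraction cells over its 4 probe sets. Its difference between the LPS effects of fraction and vehicle cells was -2.13 to -1.72. Among the other members the same difference of effects was -1.06 ± 0.37 for Fcgr1 (adjusted p = 0.23), -1.11 ± 0.43 for Fcgr4 (adjusted p = 0.29) and -1.67 ± 0.46 for Fcgr3 (adjusted p = 0.091, with the fraction arrays with LPS under their array medians). For Fcer1g it was 0.11 ± 0.14 (adjusted p = 0.83). None of the 5 probe sets of these genes was called by limma, against 1.05% of all kept probe sets. At an unadjusted p, which was 0.010 for Fcgr1, 0.018 for Fcgr4 and 0.0016 for Fcgr3, those 3 lay under 0.05. Over all kept probe sets 11.9% had an unadjusted p under 0.05 for this difference of effects. With the replicate block Fcgr1 passed (-1.06, adjusted p = 0.035).

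The fraction without LPS was high in the inhibitory receptor gene, and no other member passed the threshold. The 4 probe sets of Fcgr2b differed from vehicle by 3.37 to 3.92 on the log2 scale and took ranks 16, 17, 20 and 30 by size among the 25612 kept, a description of the values on which the gene was picked. Of the 5 other kept probe sets none was called, against 13.1% of all kept probe sets called higher and 11.5% lower. At an unadjusted p the limma value was under 0.05 for both Fcgr1 probe sets, against 35.1% of all kept probe sets.

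Fcgr1 gave 3459, 4006 and 2476 in fraction cells against 1465, 3142 and 2365 in vehicle cells, which overlapped. Its differences were 0.55 ± 0.26 (adjusted p = 0.14) and 0.84 ± 0.30 at the other probe set (adjusted p = 0.051). Without vehicle replicate 2 the first passed (0.80, adjusted p = 0.046, range over alternatives 0.029 to 0.57), as it did with the replicate block (0.55, adjusted p = 0.029). Fcgr4 at 0.26 ± 0.30 and Fcgr3 at 0.17 ± 0.32 gave 95% intervals from -0.38 to 0.90 and from -0.50 to 0.84. Fcer1g gave the narrowest interval, from -0.16 to 0.24 around 0.04.

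With LPS in both groups the fraction was again high in Fcgr2b, by 1.59 to 1.99 at its 4 probe sets. The value at the brightest, 1.98, was 1.57 without replicate 1 of the LPS vehicle group. Of the 5 other kept probe sets 1 was called lower and none higher, against 9.08% and 9.8% of all kept probe sets.

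That probe set was Fcgr3, at 30.5, 36.4 and 27.6 with fraction and LPS against 74.1, 90.5 and 103 with LPS alone, without overlap. It fell by 1.50 ± 0.32 (adjusted p = 0.0026), which is at least 1.45-fold lower when the fraction arrays are set at their array median. Fcgr4 gave 96.0, 144 and 108 against 139, 259 and 243, which overlapped by 1 array. Its difference of -0.85 ± 0.30 did not pass (adjusted p = 0.058). It passed with quantile normalization (-0.95), median centring (-0.90) or an offset of 32 (-0.71), without replicate 1 of the vehicle LPS group (-1.13) and without replicate 2 of the fraction LPS group (-1.02). It also passed with the replicate block (-0.85, adjusted p = 0.018) and without the 6 arrays numbered 1 (-1.01). The adjusted p ran from 0.018 to 0.20 over the alternatives.

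Fcgr1 differed by -0.50 ± 0.26 (adjusted p = 0.20), and by -0.81 without replicate 1 of the vehicle LPS group, where it passed (adjusted p = 0.037, range over alternatives 0.037 to 0.59). Fcer1g gave 0.15 ± 0.10 (adjusted p = 0.31). In cells with LPS the values of all 3 activating receptor genes were thus on the low side with the fraction, with 1 of them past the threshold.

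**Figure D3:**
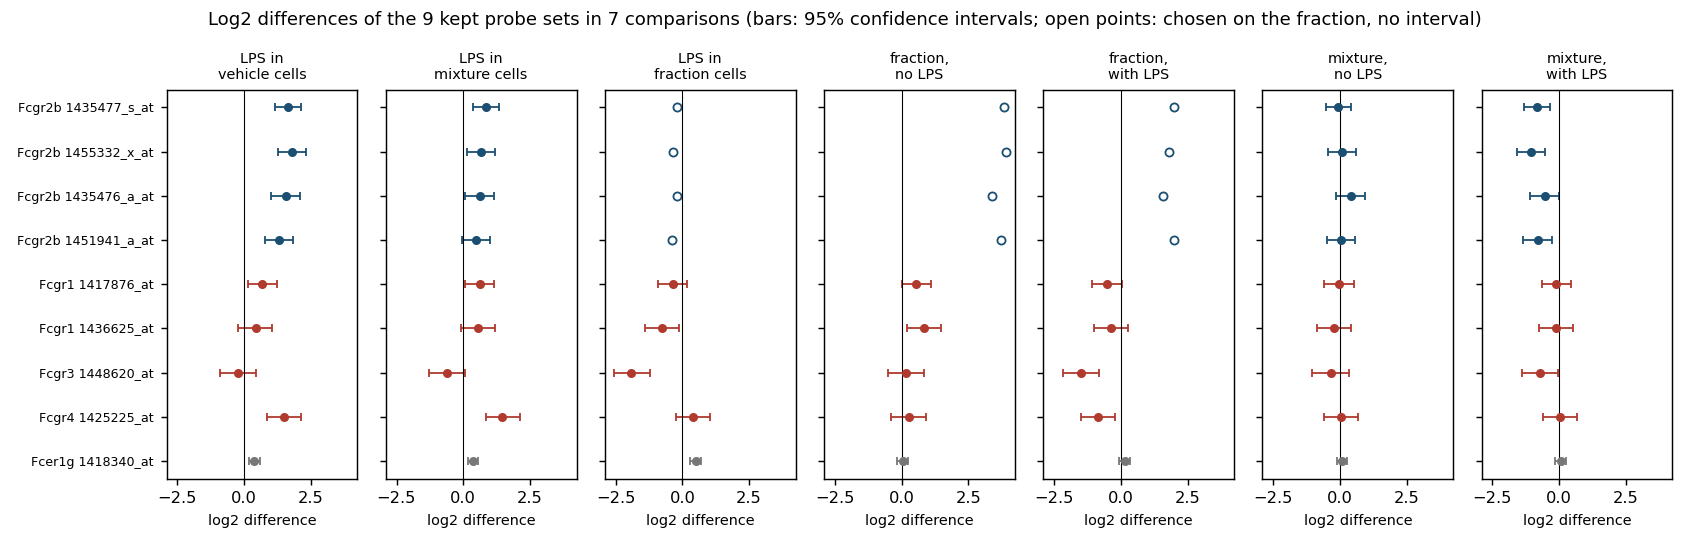
Log2 differences (horizontal axis) of the 9 kept probe sets in 7 comparisons, with 95% confidence intervals from limma and open points without an interval for Fcgr2b where a fraction group enters. Fcgr2b lies at 3.37 to 3.92 for the fraction without LPS, where the intervals of Fcgr3, Fcgr4 and Fcer1g include 0, and Fcgr3 lies at -1.91 for LPS in fraction cells.

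The mixture was compared with vehicle because the study names its 4 compounds as candidate actives of the fraction. Without LPS limma called 0 of 25612 probe sets (0%), and 1257 (4.91%) had an unadjusted p under 0.05. Fcgr2b differed by -0.06, with a 95% interval from -0.54 to 0.42. The other members differed by -0.35 to 0.08, and none was called.

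With LPS the mixture gave 500.3, 499 and 394 for Fcgr2b against 468, 1287 and 938 for vehicle, which overlapped only through replicate 1 of the vehicle group. The difference was -0.84 ± 0.23, with a 95% interval from -1.32 to -0.36, and did not pass over all probe sets (adjusted p = 0.49). Only 2 probe sets passed in this comparison, or 0.00781%, while 1978 (7.72%) had an unadjusted p under 0.05. Without replicate 1 of the vehicle LPS group the difference was -1.25 and passed (adjusted p = 0.00038, range over alternatives 0.00038 to 0.99), and 213 probe sets passed. Fcgr2b was thus not called with all arrays, and whether it passed turned on 1 array.

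Its 4 probe sets gave -1.06 to -0.54 in that comparison, the opposite side of vehicle from the fraction. The LPS effect on Fcgr2b differed between mixture and vehicle cells by -0.78 ± 0.33, which did not pass (adjusted p = 1), and by -1.19 without the same array (adjusted p = 0.035, range over alternatives 0.035 to 1). For that difference of effects limma called 0 of the 25612 probe sets, and 942 (3.68%) had an unadjusted p under 0.05. The other members differed between mixture and vehicle with LPS by -0.73 to 0.06, and none was called.

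Set directly against the mixture, the fraction was higher in Fcgr2b by 2.96 to 3.87 without LPS and by 2.13 to 2.85 with LPS. Doses of the fraction and of the mixture are given in different units, so these groups are set side by side as the study's treatments and not as matched doses. Among the 5 other probe sets 1 was called higher without LPS, against 13.6% of all kept probe sets, and 1 lower with LPS, against 11.7%. Fcgr1 rose at its dimmer probe set, with 1519.8, 1879 and 776 in fraction cells and 603, 640.5 and 618 in mixture cells (1.07 ± 0.30, adjusted p = 0.013). Its brighter probe set gave 0.58 ± 0.26 and did not pass (adjusted p = 0.12, 0.021 with only the compared arrays and 0.022 with the replicate block). Fcgr4 fell with LPS by 0.88 ± 0.30 (adjusted p = 0.044), a call that ended without replicate 1 or 3 of the fraction LPS group or replicate 2 or 3 of the mixture LPS group, with no filter and with no eBayes trend (values -0.88 to -0.74, adjusted p 0.013 to 0.15 over the alternatives). Fcgr3 did not pass in the same comparison (adjusted p = 0.096), and passed without replicate 3 of the mixture LPS group (adjusted p = 0.017, range over alternatives 0.017 to 0.48). Its 3 fraction arrays and 1 of the mixture arrays were under their array medians, so no fold is given.

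The ratio of the inhibitory receptor to each activating receptor was followed within each array as a difference of log2 signals, read only as a change between groups. In fraction cells without LPS, Fcgr2b was higher relative to Fcgr1 by 9.62-fold, to Fcgr4 by 11.8-fold, to Fcgr3 by 12.5-fold and to Fcer1g by 13.7-fold than in vehicle cells. With LPS in both groups these were 5.59-fold for Fcgr1, 7.10-fold for Fcgr4 and 3.55-fold for Fcer1g. Relative to Fcgr3, whose fraction arrays with LPS were all under their array medians, Fcgr2b was at least 5.72-fold higher with Fcgr3 set at the median. The measured log2 ratio there moved to 2.86 with an offset of 32 before taking log2. All 3 fraction arrays lay above all 3 vehicle arrays in each of the 8 comparisons, which follows from the choice of Fcgr2b.

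With LPS alone Fcgr2b was higher relative to Fcgr1 by 1.92-fold, relative to Fcgr3 by 3.66-fold and relative to Fcer1g by 2.39-fold, with no overlap between arrays. Each had an exact two-sided permutation p of 0.1, the smallest that 3 against 3 arrays can give, and 0.2 after adjustment over 16 such tests. These ratios use the vehicle arrays of the contrast on which Fcgr2b was picked, so their p-values are not independent of that choice. Relative to Fcgr4, which rose too, the difference was 1.10-fold (exact permutation p = 0.6). In the mixture with LPS against vehicle with LPS, Fcgr2b was lower relative to Fcgr1 (-0.73 log2), Fcgr4 (-0.87) and Fcer1g (-0.90), each without overlap and with an exact permutation p of 0.1. Relative to Fcgr3 the value was -0.11 (exact permutation p = 0.8).

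**Figure D4:**
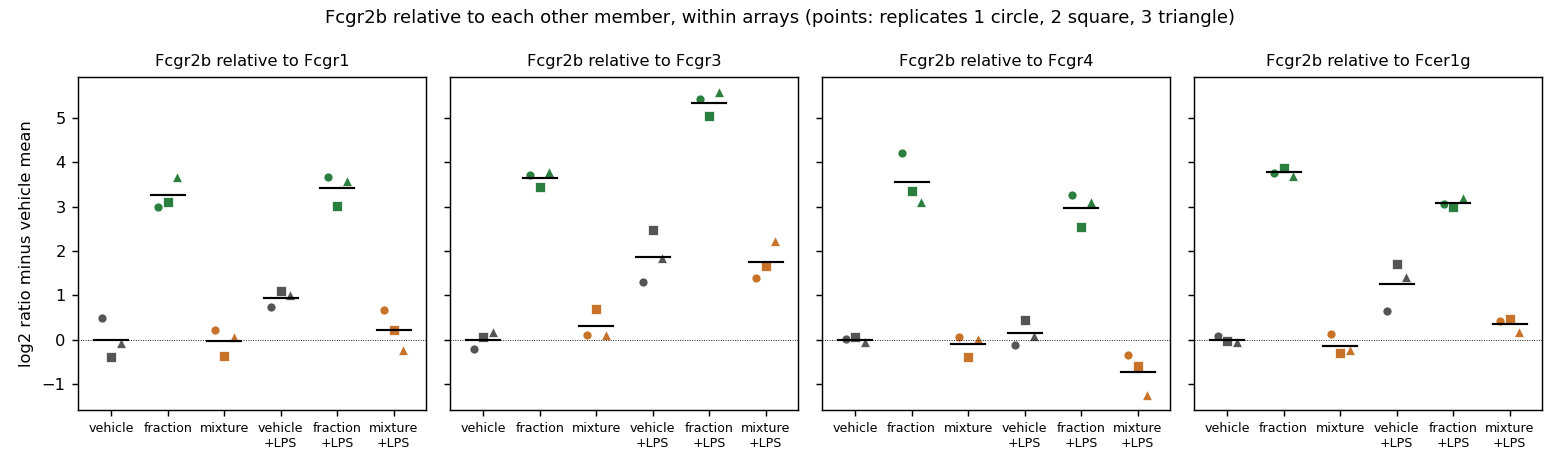
Log2 signal of Fcgr2b minus that of another member on the same array (vertical axis, set to 0 at the vehicle mean), with symbols for replicates 1 to 3 and a line at each group mean. Fraction arrays lie highest in all 4 panels, and relative to Fcgr4 the vehicle group with LPS stays near 0 (0.14).

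The genes with the most similar patterns over the 18 arrays were named for each member by Pearson's correlation of log2 signal, a description in which the arrays share the 6 groups. Fcgr2b was closest to Arntl, a core clock factor (0.975), and to Gab2, a scaffold that recruits PI3 kinase below Fc receptors (0.973). Metrnl, Aig1 and Ifrd1 followed at 0.972 each. Fcgr4 was closest to Bcl3 (0.914), a nuclear IkB family member, and had Nlrc5, an activator of MHC class I genes, among its 5 nearest (0.899).

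Fcer1g was closest to the interferon-inducible Oas1a (0.954) and Slfn4 (0.944). Fcgr1 was closest to Ifitm6 (0.902) and Tmem106a (0.856), and Fcgr3 to Map3k14, the kinase of the non-canonical NF-kB pathway (0.889), and Gadd45g (0.874). Fcgr2b itself correlated with Fcgr1 at 0.34, with Fcer1g at 0.34, with Fcgr4 at 0.11 and with Fcgr3 at -0.21. The highest correlation between members was 0.737, for Fcgr4 with Fcer1g, and the lowest was -0.637, for Fcgr3 with Fcer1g.

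Genes beside the cluster on chromosome 1 were read for the fraction without LPS. Atf6, an unfolded protein response factor 6 genes away from Fcgr2b, rose by 0.97 ± 0.13 (adjusted p = 1.8e-05). Between Atf6 and Fcgr2b, Dusp12 gave -0.14 ± 0.11 (adjusted p = 0.41), and on the other side of the receptor genes Sdhc gave -0.07 ± 0.11 (adjusted p = 0.68). Tomm40l, nearer to Fcer1g, gave -0.04 ± 0.12 (adjusted p = 0.85). B4galt3, a galactosyltransferase gene beyond Fcer1g, rose by 0.47 ± 0.11 (adjusted p = 0.0036). Of 12 measured neighbours, Atf6 and B4galt3 were the 2 that passed, against 29.3% of all genes called in either direction.

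The pathway below the receptors was read from lists of genes with 1 probe set each. In cells without LPS the fraction raised 5 and lowered 5 of 26 measured kinases and activators, against 14.9% and 14.4% of all genes, and the median difference was 0.05 against 0.02 over all genes. Gab2 rose by 2.00 ± 0.23 (adjusted p = 2.9e-06) and Lcp2, the adapter SLP-76, by 0.87 ± 0.14 (adjusted p = 9.3e-05). Pla2g4a, which frees arachidonic acid, rose by 0.65 ± 0.10 (adjusted p = 5.8e-05), while Vav2, a guanine nucleotide exchange factor, fell by 0.94 ± 0.24 (adjusted p = 0.007).

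Of 14 measured inhibitors of the pathway the fraction alone raised 4 and lowered 3, against 14.9% and 14.4% of all genes (median 0.08). Lpxn rose by 1.43 ± 0.20 (adjusted p = 3.3e-05), Ptpn22, a tyrosine phosphatase, by 0.89 ± 0.17 (adjusted p = 0.00055) and Dok1 by 0.71 ± 0.14 (adjusted p = 0.00076). Among 15 other inhibitory receptors of myeloid cells 5 rose and 2 fell, against the same shares of all genes, with a median of 0.35. Those that rose included Cd200r1 (2.15 ± 0.38, adjusted p = 0.00031), Cd300a (1.63 ± 0.13, adjusted p = 2.6e-08) and Ceacam1 (1.04 ± 0.24, adjusted p = 0.0032).

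The ITAM adapters and the activating receptors paired with them, other than the Fc gamma receptors, had 4 of 15 members higher and none lower, against 14.9% and 14.4% of all genes (median 0.26). Clec7a, the beta-glucan receptor Dectin-1, rose by 1.21 ± 0.17 (adjusted p = 3e-05) and Trem3 by 1.06 ± 0.21 (adjusted p = 0.0009).

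In cells with LPS the fraction raised 3 and lowered 8 of the 26 kinases and activators, against 10.4% and 11.8% of all genes (median -0.13, and -0.02 over all genes). Gab2 was again higher (1.12 ± 0.23, adjusted p = 0.0018), and Pik3cd, the catalytic PI3 kinase subunit of leukocytes, fell by 0.89 ± 0.12 (adjusted p = 4e-05). Of the 14 inhibitors 2 rose and 5 fell (median -0.04), among them Pag1, which anchors the inhibitory kinase Csk (0.96 ± 0.14, adjusted p = 6.1e-05), and Ubash3b (-0.84 ± 0.15, adjusted p = 0.00075). Of the 15 inhibitory receptors 1 rose and 1 fell (median 0.06), Sirpa (0.59 ± 0.13, adjusted p = 0.0032) and Cd72 (-0.96 ± 0.13, adjusted p = 2.4e-05).

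LPS in vehicle cells raised 8 and lowered 6 of the 26 kinases and activators, against 9.47% and 20.5% of all genes (median -0.10, and -0.07 over all genes). Pik3r5, a PI3 kinase regulatory subunit, rose by 1.74 ± 0.12 (adjusted p = 1.8e-09) and the Src-family kinase Fgr by 1.37 ± 0.21 (adjusted p = 5.9e-05). Of the 14 inhibitors 4 rose and 4 fell (median -0.28). Inpp5d, the phosphatase that Fcgr2b recruits, fell by 1.17 ± 0.12 (adjusted p = 7.9e-07), with Ptpn6 at -0.57 ± 0.10 (adjusted p = 0.00023) and Csk at -0.50 ± 0.10 (adjusted p = 0.0011). Among the inhibitors that rose was Inppl1, by 0.55 ± 0.17 (adjusted p = 0.019). LPS in vehicle cells thus raised the receptor gene Fcgr2b and lowered Inpp5d, the gene of its phosphatase, while the inhibitors as a list went both ways.

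Of 23 measured genes of cytokine pathways and factors linked to Fc gamma receptor genes, the fraction alone lowered 9 and raised 1, against 14.4% and 14.9% of all genes (median -0.34). Stat2, of the interferon pathway, fell by 1.06 ± 0.25 (adjusted p = 0.0036) and Socs3 by 1.84 ± 0.24 (adjusted p = 1.1e-05), while Ifnb1, the interferon beta gene, was under the array median on all 3 fraction arrays and fell at least 1.14-fold (adjusted p = 0.034). With LPS in vehicle cells 11 of the 23 rose and 4 fell, against 9.47% and 20.5% of all genes (median 0.51), with Il10 at 3.13 ± 0.56 (adjusted p = 0.00036) and C5ar1, the C5a receptor, at 1.54 ± 0.25 (adjusted p = 0.00012). In cells with LPS the fraction raised 4 and lowered 4 of them, against 10.4% and 11.8% (median -0.09).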

How the data were processed

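Total RNA of 18 samples of RAW264.7 cells was labelled with biotin and hybridised to Affymetrix arrays with 1 colour, and the authors deposited 1 linear signal intensity per probe set and array. The intensities were made with MAS5, per the submitters' processing notes (version not given in the sources used here), and each array's 2% trimmed mean was 500 in the deposited table. Detection calls and scans were not used here, so signal over background is judged only against the array median, and the number of arrays limits the precision.

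Of 45101 probe sets 64 controls were left out. Intensities under 1 were set to 1 and taken to log2, and a probe set entered the fit where 3 or more arrays put it at or above their median, which left 25612. A model of the 6 group means (limma 3.58.1, R 4.3.3) was fitted to all of these, with 12 residual degrees of freedom and an intensity trend in eBayes. For each of 11 two-sided contrasts, p-values were adjusted over all kept probe sets by Benjamini-Hochberg, and 0.05 was the threshold. Ratios of members were compared by exact permutation of 3 against 3 arrays, with none where a fraction group entered. A list gene was represented by its brightest probe set, 1 of 11547. Where a group lay under its array medians, a fold was computed against the median as a lower bound, a treatment chosen after seeing the data.

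The lists were kinases and activators below Fc receptors, inhibitors below them, inhibitory receptors of myeloid cells, ITAM adapters with their receptors, phagocytic cup and actin genes, NADPH oxidase, cytokine pathways linked to Fc gamma receptor genes, complement and scavenger receptors, and other binders of antibody. Members, lists and tests were chosen with earlier results of these data known. Named were all member probe sets, up to 4 list genes per comparison past the threshold whose arrays did not overlap (largest differences first, not all given here), and the 5 genes most correlated with each member. Genes beside the cluster on chromosome 1 were chosen for their position. The fit was tested on simulated data with known changes.

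Alternatives were median centring, quantile normalization, an offset of 32 before taking log2, no filter, a 75th percentile filter, no eBayes trend and the brightest probe set per gene. Others were a replicate block, only the compared arrays, the next brightest Fcgr2b probe set and each array left out. Leaving out the 6 arrays numbered 1 was added after seeing the data.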

Additional observations from a re-analysis of the deposited data

Results flagged for a closer look

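For 1 of the 4 kept Fcgr2b probe sets, every array was higher with LPS in vehicle cells (205 to 580 against 121 to 189) and every array was lower with LPS in fraction cells (1447 to 1554 against 1821 to 2349). The LPS effect in fraction cells minus that in vehicle cells was -1.72 on the log2 scale. This difference was not tested, because Fcgr2b was picked on its values in fraction cells. The arrays of its other kept probe sets overlapped between fraction cells with and without LPS. Over all kept probe sets, the arrays of 14% were wholly higher with LPS in vehicle cells. Those of 27.3% were wholly lower with LPS in fraction cells.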

How the results depend on the processing

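Over 45 member differences and their 730 alternative values, 667 kept direction and side of the threshold, 11 lost a call, 25 gained one and 27, all of uncalled differences, changed sign. Of 324 alternative values of the ratios 318 stayed within the replicate spread, and of 188 alternative counts 152 stayed within 1.5 times; the cause of the other moves was not tested, apart from the smaller number of genes tested with 1 probe set per gene. Median centring moved the median of all probe sets by 0.124 for LPS in vehicle cells, 0.162 for LPS in fraction cells and -0.101 for fraction against mixture without LPS. It turned Fcgr1 for LPS in vehicle cells into a call (0.82), Fcgr4 for fraction against vehicle with LPS too (-0.90), moved Fcgr2b for LPS in fraction cells to -0.04 and turned Fcer1g for the fraction without LPS to -0.04. Quantile normalization gave a call for Fcgr4 for fraction against vehicle with LPS (-0.95), as did the value plus 32 (-0.71), and turned uncalled values of the mixture without LPS to 0.01 for Fcgr1 and -0.03 for Fcgr4 and of fraction against mixture without LPS to 0.03 for Fcer1g. Replicate numbers were not taken as pairs, since the labels state no pairing and the deviations of same-numbered arrays did not all correlate over 0.1. The 45 pairs of same-numbered arrays from different groups correlated at 0.0149 to 0.156 (median 0.076), all positive. The 90 other pairs correlated at -0.124 to 0.0498 (median -0.0372). What the numbers mark was not tested. With the replicate block Fcgr1 passed for LPS in vehicle cells (0.69) and mixture cells (0.61), for fraction against vehicle (0.55) and mixture (0.58) without LPS, and for the interaction of fraction and LPS (-1.06), Fcgr4 passed for fraction against vehicle with LPS (-0.85), and the block gave 652 calls for that interaction and 4 for mixture against vehicle with LPS. With only the compared arrays Fcer1g for LPS in vehicle cells lost its call (0.38), Fcgr1 gained one for LPS in mixture cells (0.61) and fraction against mixture without LPS (0.58), and calls numbered 112 for the interaction of fraction and LPS and 0 for mixture against vehicle with LPS. Fcgr4 for fraction against mixture with LPS lost its call with no filter (-0.88) and with no eBayes trend (-0.88), where the interaction of fraction and LPS gave 102 calls. Mixture against vehicle with LPS gave 1 call with quantile normalization, median centring, the 75th percentile filter or no trend, and 0 with the value plus 32. With 1 probe set per gene the calls were 3688, 4313 and 2860 for LPS in vehicle, fraction and mixture cells, 3614 and 2757 for fraction against vehicle without and with LPS, 0 for mixture against vehicle with LPS, and 3752 and 3261 for fraction against mixture without and with LPS. Without the 6 arrays numbered 1 the calls were 2919 for fraction and 79 for mixture against vehicle with LPS, 3760 for fraction against mixture with LPS and 2 for mixture against vehicle without LPS. Fcgr1 then passed for LPS in vehicle (0.70) and mixture cells (0.76), Fcgr4 for fraction against vehicle with LPS (-1.01) and Fcgr2b for mixture against vehicle with LPS (-1.31), and Fcgr2b for fraction against mixture without LPS moved to 4.07. Uncalled values then turned to -0.04 for Fcgr4 and -0.00 for Fcer1g (mixture without LPS), -0.12 and -0.06 (mixture with LPS), and 0.02 for Fcer1g (fraction against mixture without LPS). Leaving out 1 array at a time, Fcgr1 ranged from 0.39 to 1.00 for LPS in vehicle cells, from 0.25 to 0.80 and from -0.81 to -0.26 for fraction against vehicle without and with LPS, and from -0.33 to 0.22 and -0.42 to 0.13 for mixture against vehicle without and with LPS. Fcgr4 ranged from -0.03 to 0.63 for LPS in fraction cells, from -1.13 to -0.69 for fraction against vehicle with LPS, from -0.02 to 0.15 and -0.25 to 0.19 for mixture against vehicle, and from -0.03 to 0.63 and -1.05 to -0.74 for fraction against mixture, each without and with LPS. Fcer1g ranged from 0.28 to 0.48 for LPS in vehicle cells, from -0.06 to 0.11 for the fraction without LPS, from -0.02 to 0.15 and -0.04 to 0.15 for the mixture without and with LPS, and from -0.09 to 0.04 for fraction against mixture without LPS. Fcgr2b ranged from 0.78 to 0.97 for LPS in mixture cells, from -0.17 to 0.02 and -1.25 to -0.52 for the mixture without and with LPS, and from -1.19 to -0.46 for the interaction of mixture and LPS. Fcgr3 ranged from -0.01 to 0.29 for the fraction without LPS and from -1.12 to -0.53 for fraction against mixture with LPS. Calls ranged from 0 to 4 and from 0 to 213 for mixture against vehicle without and with LPS, from 117 to 392 for the interaction of fraction and LPS and from 0 to 12 for that of mixture and LPS. Among the ratios, the value plus 32 gave Fcgr2b relative to Fcgr3 at 1.04 for LPS in fraction cells and 2.86 for the fraction with LPS, since it compresses the low Fcgr3 signal. Fcgr3 and Fcgr4 lie near the array medians, so their folds are the least precise of the members.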

Other observations

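Machinery that acts after the receptors was measured too. In cells without LPS the fraction raised 7 and lowered 4 of 26 phagocytic cup and actin genes, against 14.9% and 14.4% of all genes (median 0.03). Pld1, a phospholipase D of membrane traffic, rose by 1.83 ± 0.38 (adjusted p = 0.0014), and Marcksl1, an actin-linked substrate of protein kinase C, fell by 0.64 ± 0.14 (adjusted p = 0.0022). Of the 4 measured NADPH oxidase subunits, Ncf4 (0.35 ± 0.07, adjusted p = 0.0014) and Ncf1 (0.26 ± 0.09, adjusted p = 0.033) rose with the fraction without LPS, against 14.9% of all genes. Both rose in cells with LPS as well, by 0.29 ± 0.07 (adjusted p = 0.0077) and 0.54 ± 0.09 (adjusted p = 0.00019), against 10.4% of all genes. Of 10 complement and scavenger receptors, 6 rose and 1 fell with LPS in vehicle cells, against 9.47% and 20.5% of all genes (median 0.92). C3ar1, the C3a receptor, rose by 1.99 ± 0.26 (adjusted p = 1.2e-05) and the scavenger receptor Msr1 by 1.14 ± 0.20 (adjusted p = 0.00023). Of 3 measured other binders of antibody, only Trim21, a cytosolic receptor for IgG, was called in the next 2 comparisons. It rose with LPS in vehicle cells (0.76 ± 0.18, adjusted p = 0.0034), against 9.47% of all genes. It fell with the fraction without LPS (-1.05 ± 0.18, adjusted p = 0.00018), against 14.4% of all genes.

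In fraction cells LPS lowered 6 of the 14 inhibitors of the pathway and raised none, against 24.4% and 10.9% of all genes (median -0.32, and -0.11 over all genes). Inpp5d fell by 1.60 ± 0.12 (adjusted p = 9.3e-09) and Dok1 by 1.25 ± 0.14 (adjusted p = 1.1e-06). Of the 15 inhibitory receptors 7 fell and 2 rose, among them Cd200r1 (-1.64 ± 0.38, adjusted p = 0.0025), which had risen with the fraction alone. Fcgr2b stood at 3069 to 3368 in the same cells. A difference between these LPS effects and those in vehicle cells was called by limma for 0 of the 14 inhibitors and, as a lower effect in fraction cells, for 2 of the 15 inhibitory receptors, against 1.49% of all genes called either way and 0.866% lower.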
